A study of Danio rerio with 18 samples.

Results

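The retinoblastoma family (rbl2, rbl1 and rb1) and the E2F genes (e2f1, e2f2, e2f3, e2f4, e2f5, e2f7 and e2f8) were followed through the response of whole zebrafish embryos to ionizing radiation. The 10 genes were found by symbol, ignoring case, among the 32057 genes measured, and each symbol belonged to 1 gene. All groups were whole embryos labelled as 30 h after fertilization, and the irradiated groups had received 30 Gy of X-rays at 5 Gy per min. The triple mutant (puma -/-, noxa -/- and p21 -/-) has p53 but carries mutations in 3 genes that p53 turns on, and it was sampled untreated and 1, 2 and 3 h after irradiation. The p53 mutant (p53 -/-) was sampled untreated and 1 and 3 h after irradiation. The wild type (p53 +/+) was sampled 3 h after irradiation and untreated. Each of the 9 groups had 2 libraries, 18 in all. Whether the 2 libraries of a group came from separate clutches or pools is not labelled, so the p values below measure only the spread between libraries. The labels also leave out when the untreated embryos were collected. The series title concerns cell cycle arrest that depends on p53.

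Retinoblastoma family proteins, also called pocket proteins, bind E2F transcription factors and hold back the genes that E2Fs control. Cyclin-dependent kinases phosphorylate the pocket proteins, which releases E2F and lets a cell enter S phase, and inhibitors such as p21 block those kinases. In mammalian cells the protein of rb1 mainly binds the activating factors E2F1, E2F2 and E2F3. The proteins of rbl1 and rbl2 mainly bind E2F4 and E2F5 and join them and the MuvB core in the DREAM complex, a repressor of cell cycle genes in resting cells and after p53 activation. The atypical factors E2F7 and E2F8 repress genes without a dimer partner or a pocket protein, and E2F7 is a direct p53 target in human cells.

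Levels are given in TPM, transcript abundances that are corrected for length and scaled to the same sum in each library. The read depth behind them is unknown. Between 14057 and 17419 genes reached 1 TPM per library, and the mitochondrial share of TPM was 1.15% to 8.06%. In each of the untreated p53 mutant, the p53 mutant at 1 h and the untreated wild type, 1 library had 304 to 631 TPM of 5.8S ribosomal RNA and its partner 13.6 to 52.8 TPM, whereas the other 12 libraries were listed at 0. The first kind is called 5.8S-rich here and its partner 5.8S-poor. In these 3 pairs, 29 of the 30 values of the 10 genes were lower in the library with more 5.8S RNA. The same was not counted over all genes. The 5.8S-rich libraries also had fewer genes at 1 TPM or more (14057 to 16262, against 17182 to 17419 in their partners). For members whose call or sign at 3 h differed with these libraries, values without each kind are given, and what the 5.8S content adds to a result was not tested. All 11 matched markers, of 15 listed for embryo tissues, were above 0 in every library. The genes mutated in the triple mutant were also read. There bbc3 (puma) reached 35.4 TPM, cdkn1a (p21) 65.8 TPM and pmaip1 (noxa) 6.17 TPM after irradiation, so transcript levels do not check those mutations.

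All 10 genes were expressed. By their median over the 18 libraries the order of TPM levels was e2f8 (27.0), e2f3 (25.6), e2f4 (22.5), e2f7 (19.7), rb1 (16.4), e2f2 (8.78), rbl1 (7.98), e2f1 (4.35), e2f5 (1.61) and rbl2 (1.60). The ranges of every pair of neighbours in this order overlapped. The range of rbl2 was 0.18 to 40.9 TPM, and 12 libraries had at least 1 TPM of it. The range of e2f5 was 0.82 to 2.28 TPM. All 10 genes passed the filter of at least 1 TPM in at least 2 libraries, along with 18575 genes in all.

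Of the 10 genes, rbl2 was the one called after irradiation. It encodes a pocket protein of the DREAM complex. In triple mutant embryos its level was 0.95 and 1.27 TPM untreated, 2.29 and 2.16 TPM at 1 h, 5.57 and 6.02 TPM at 2 h, and 23.8 and 26.7 TPM at 3 h. No group overlapped another in this course. In p53 mutant embryos rbl2 had 0.57 and 1.19 TPM untreated, 0.18 and 1.48 TPM at 1 h, and 0.77 and 0.78 TPM at 3 h. The 3 groups overlapped, and all 6 libraries stayed under 1.5 TPM. In wild-type embryos rbl2 had 40.9 and 36.0 TPM at 3 h, against 0.71 and 1.71 TPM untreated. The wild-type groups were far apart.

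**Figure D1:**
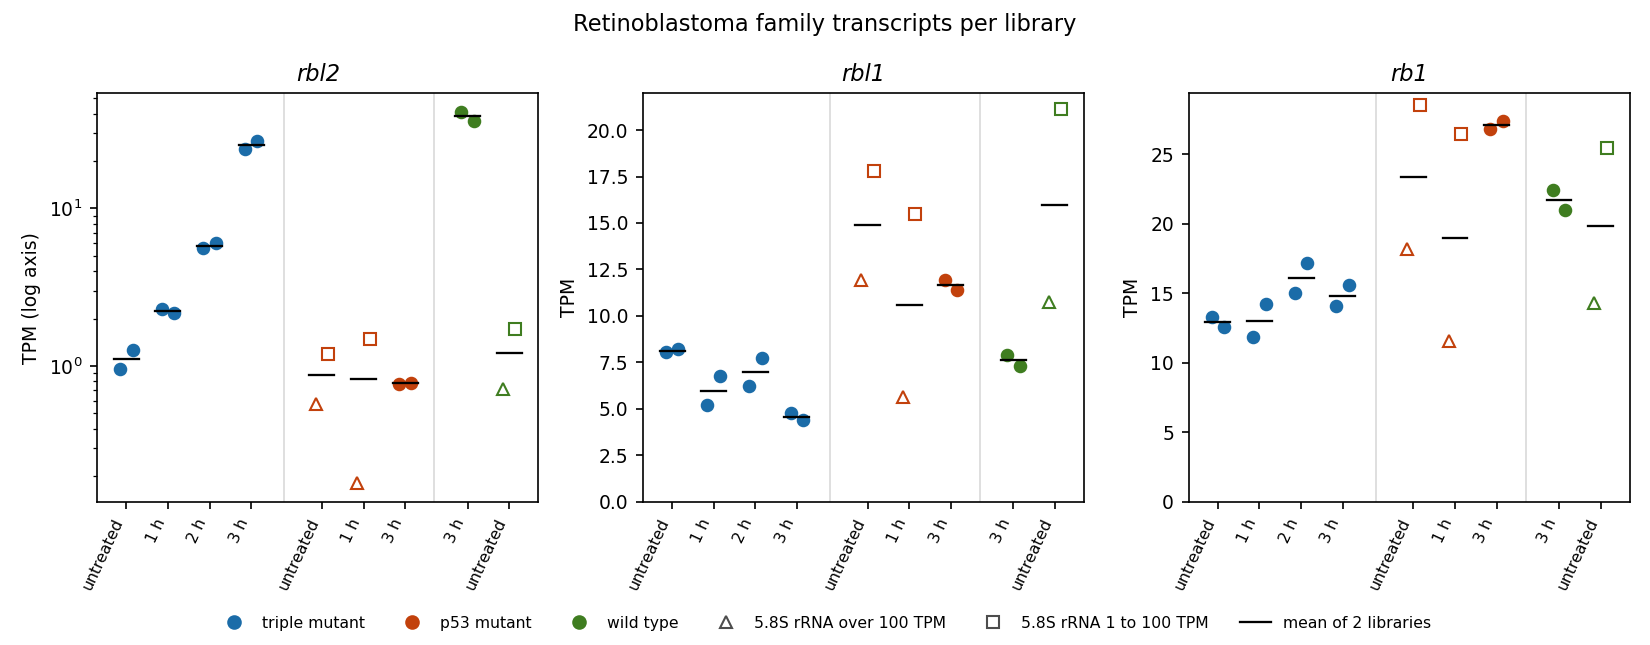
TPM of rbl2 (log axis), rbl1 and rb1 (linear axes) in each of the 18 libraries, by genotype and time. Points are libraries, bars are means of 2, and open symbols mark libraries with 5.8S ribosomal RNA. rbl2 climbed with time in the triple mutant, stood at 36.0 and 40.9 TPM in the wild type at 3 h, and stayed between 0.18 and 1.48 TPM in the p53 mutant.

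The mean of rbl2 at 3 h was 25.2 ± 2.07 TPM in irradiated triple mutant embryos and 1.11 ± 0.226 TPM in untreated ones (SD, n = 2 each), a ratio of 22.7. On the log2(TPM + 1) scale, which understates the fold of a gene near 1 TPM, rbl2 rose by 3.64 (SE 0.32, limma adjusted p = 6.74e-05). Wild-type means were 38.5 ± 3.51 TPM at 3 h and 1.21 ± 0.707 TPM untreated (SD, n = 2 each), a ratio of 31.8, and rbl2 rose by 4.19 (SE 0.32, limma adjusted p = 1.34e-05). Both rises were also called in a fit to each genotype's own table (limma adjusted p = 1.65e-07 in the triple mutant and 0.00172 in the wild type). p53 mutant embryos showed a change of -0.12 at 1 h and -0.06 at 3 h (SE 0.32 each, limma adjusted p = 1 and 0.974), with a 95% interval of -0.76 to 0.64 at 3 h. The p53 mutant change at 3 h was -0.30 without the 5.8S-rich libraries and 0.18 without the 5.8S-poor ones. The wild-type rise was 3.86 without the 5.8S-rich libraries and 4.53 without the 5.8S-poor ones.

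The rise of rbl2 in the triple mutant could be followed over time. At 1 h the mean ratio to untreated embryos was 2.00 and the log2 change 0.62 (SE 0.32), which was not called over all groups (limma adjusted p = 1) and was called within the table (limma adjusted p = 0.0391). At 2 h the mean ratio was 5.22 and the log2 change 1.69 (SE 0.32, limma adjusted p = 0.0669, or 9.23e-05 within the table). Between 3 h and 1 h rbl2 rose by 3.02 (SE 0.32, limma adjusted p = 0.000771), a call that was lost with a pseudocount of 0.1 TPM (3.44, limma adjusted p = 0.0617). In bulk embryos, more cells with the transcript and more transcript per cell cannot be told apart.

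The response of rbl2 differed between genotypes. At 3 h the change was -0.06 in the p53 mutant and 4.19 in the wild type, and the difference, taken as wild type minus p53 mutant, was 4.26 (SE 0.453, limma adjusted p = 0.000778). Triple mutant minus p53 mutant was 3.70 (SE 0.453, limma adjusted p = 0.0023), and this call was lost with a pseudocount of 0.1 TPM (4.49, limma adjusted p = 0.1). Triple mutant minus wild type was -0.56 (SE 0.453, limma adjusted p = 1), with a 95% interval of -1.54 to 0.43. That difference was -0.22 without the 5.8S-rich libraries and -0.89 without the 5.8S-poor ones. The median of all tested genes also moved between these 2 fits, from 0.039 to -0.387. At 1 h triple mutant minus p53 mutant was 0.73, with a 95% interval of -0.26 to 1.72 (limma adjusted p = 1). It was 0.44 without the 5.8S-rich libraries and 1.03 without the 5.8S-poor ones, beside medians of all tested genes of -0.077 and 0.383.

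rbl1 encodes the other pocket protein of the DREAM complex. It had 4.75 and 4.38 TPM in triple mutant embryos at 3 h, against 8.05 and 8.22 TPM in untreated ones, and 7.91 and 7.31 TPM in wild-type embryos at 3 h, against 10.8 and 21.1 TPM untreated. p53 mutant embryos had 11.9 and 11.4 TPM at 3 h, against 11.9 and 17.8 TPM untreated. The 3 h groups lay below the untreated groups in all 3 genotypes, by a narrow margin in the p53 mutant (11.91 against 11.92 TPM). The log2 change of rbl1 was -0.72 in the triple mutant, -0.30 in the p53 mutant and -0.91 in the wild type (SE 0.383 each, limma adjusted p = 1, 0.873 and 0.24). The fit within the table called the triple mutant change (limma adjusted p = 0.0192) and not the wild-type change (0.518). The wild-type change of rbl1 was -1.36 without the 5.8S-rich libraries and -0.45 without the 5.8S-poor ones. The median change of all tested genes was 0.029 and 0.458 in these fits.

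rb1, the founding member of the family, was not called in any comparison over all libraries. It had 14.1 and 15.6 TPM in triple mutant embryos at 3 h, against 13.3 and 12.6 TPM untreated, and 26.8 and 27.4 TPM in p53 mutant embryos at 3 h, against 18.2 and 28.5 TPM untreated. Wild-type embryos had 22.4 and 21.0 TPM at 3 h, against 14.3 and 25.4 TPM untreated. The groups overlapped in the p53 mutant and in the wild type. The log2 changes of rb1 were 0.18, 0.24 and 0.17 in these genotypes (SE 0.34 each), with 95% intervals of -0.56 to 0.93, -0.50 to 0.98 and -0.57 to 0.91. Without the 5.8S-rich libraries the p53 mutant and wild-type changes of rb1 were -0.071 and -0.22, and without the 5.8S-poor ones 0.55 and 0.57. The median change of all tested genes was -0.004 and 0.029 in the first of these fits and 0.363 and 0.458 in the other.

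The share of rbl2 among the pocket gene transcripts differed after irradiation where p53 was present. rbl2 made up 55.8% and 57.2% of the summed TPM of rb1, rbl1 and rbl2 in triple mutant embryos at 3 h, against 4.27% and 5.76% untreated. In wild-type embryos the share was 57.4% and 56.0% at 3 h, against 2.75% and 3.54% untreated. Among p53 mutant embryos rbl2 made up 1.97% and 1.95% at 3 h, against 1.86% and 2.50% untreated. In the triple mutant the rbl2 share averaged 10.6% at 1 h and 20.1% at 2 h. The least abundant pocket gene in untreated embryos thus became the most abundant one in both genotypes with p53 by 3 h. These shares do not depend on the scaling of a library. At 1 h the rbl2 shares of the p53 mutant were 1.04% and 3.41%. The share of rbl1 averaged 10.3% ± 1.25 in the triple mutant at 3 h and 36.7% ± 0.788 untreated (SD, n = 2 each), and 11.2% ± 0.197 in the wild type at 3 h and 42.7% ± 1.45 untreated. Its p53 mutant average was 29.5% ± 0.969 at 3 h and 38.2% ± 1.00 untreated, so the make-up also differed there. The share of rb1 averaged 33.2%, 68.6% and 32.1% at 3 h in the triple mutant, the p53 mutant and the wild type. Untreated, the rb1 share averaged 58.3%, 59.6% and 54.1%. The summed TPM of the 3 genes was 44.6 ± 2.87 in the triple mutant at 3 h and 22.2 ± 0.148 untreated, 39.5 ± 0.028 in the p53 mutant at 3 h and 39.1 ± 11.9 untreated, and 67.8 ± 4.96 in the wild type at 3 h and 37.0 ± 15.9 untreated.

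**Figure D2:**
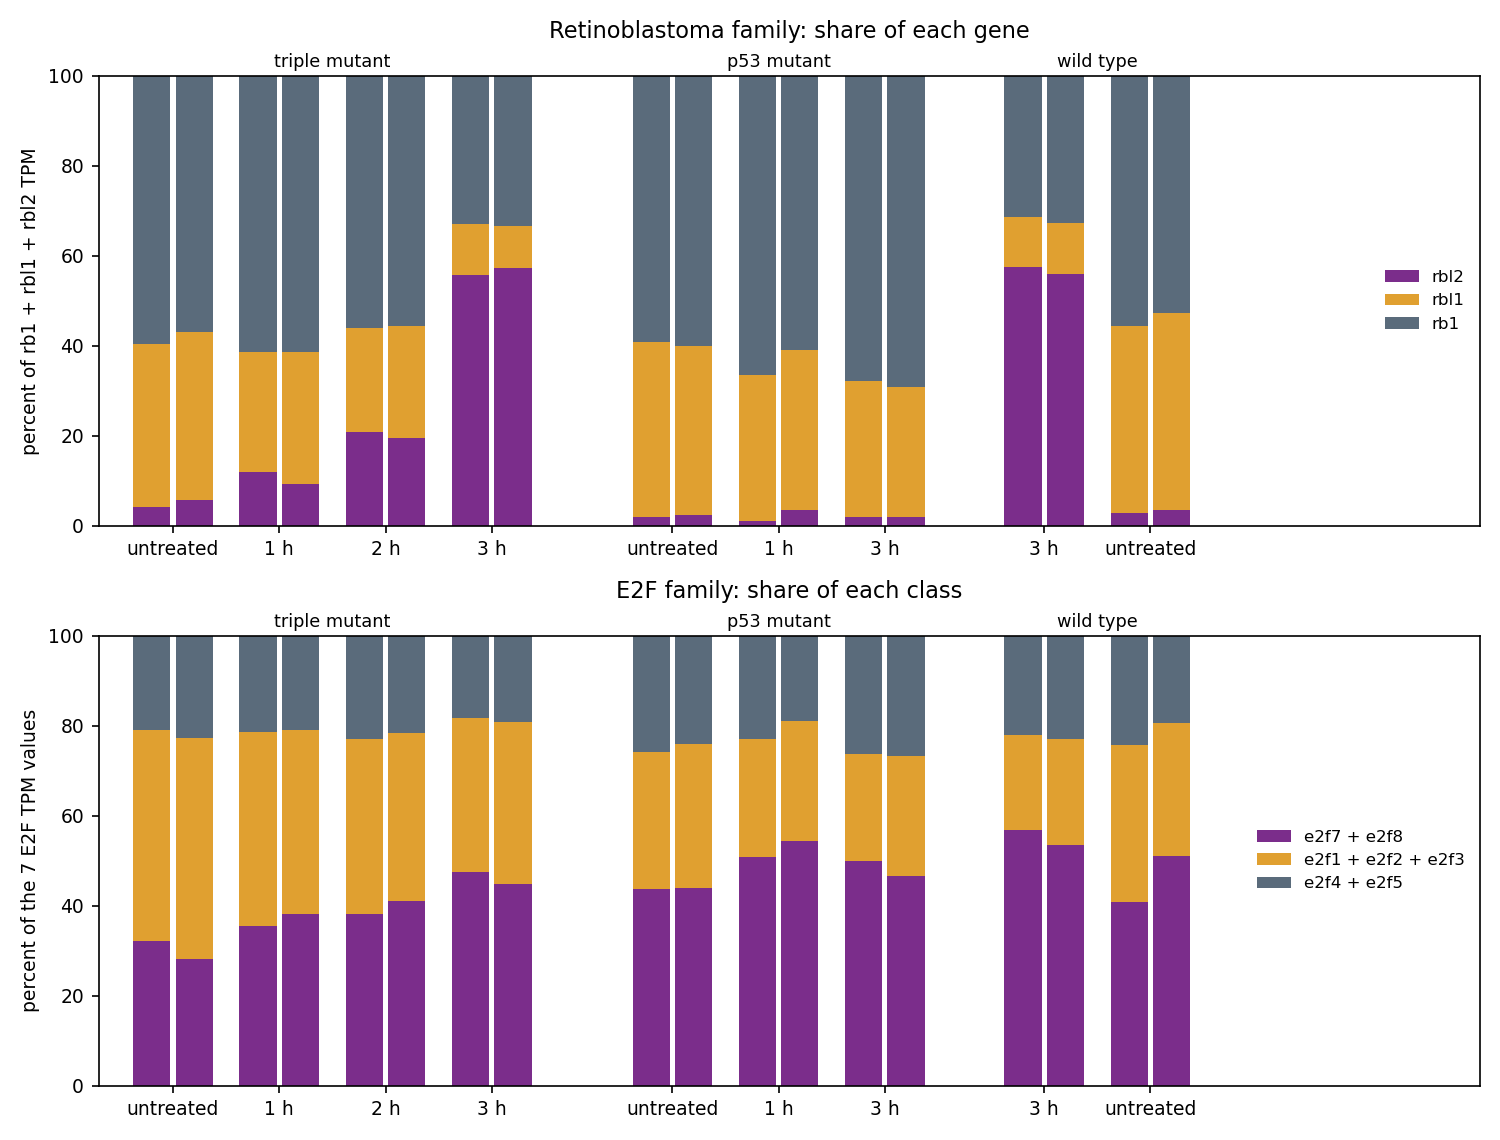
Upper panel, percent of the summed TPM of rb1, rbl1 and rbl2 that each gene held, and lower panel, percent of the summed TPM of the 7 E2F genes held by each class, with 1 bar per library. rbl2 held 55.8% to 57.4% at 3 h in the triple mutant and the wild type and at most 3.41% in any p53 mutant library.

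The activating E2F genes e2f1, e2f2 and e2f3 drive entry into S phase. e2f2 had 5.07 and 5.37 TPM in triple mutant embryos at 3 h, against 9.31 and 8.23 TPM untreated. In wild-type embryos it had 5.11 and 6.28 TPM at 3 h, against 8.85 and 20.9 TPM untreated, and in p53 mutant embryos 8.43 and 9.86 TPM at 3 h, against 9.94 and 16.6 TPM untreated. The irradiated groups lay below the untreated ones in all 3 genotypes (9.86 against 9.94 TPM at the nearest in the p53 mutant). The log2 change of e2f2 was -0.65 in the triple mutant, -0.45 in the p53 mutant and -1.14 in the wild type (SE 0.51 each, limma adjusted p = 1, 0.851 and 0.271). The fit within the table called the triple mutant change alone (limma adjusted p = 0.0114). In the triple mutant e2f2 stood at 9.02 ± 0.877 TPM at 1 h and 8.99 ± 0.403 TPM at 2 h (SD, n = 2 each), close to the untreated 8.77 ± 0.764 TPM, so the lower level was seen at 3 h. Without the 5.8S-rich libraries the wild-type change of e2f2 was -1.71, and without the 5.8S-poor ones -0.56. Its p53 mutant change was -0.80 and -0.11 in these fits. The median change of all tested genes was 0.029 and 0.458 in the wild type, and -0.004 and 0.363 in the p53 mutant.

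e2f3 had 19.6 TPM in both triple mutant libraries at 3 h, against 25.2 and 25.9 TPM untreated, and the log2 change was -0.37 (SE 0.277, limma adjusted p = 1). It had 26.7 and 28.0 TPM in p53 mutant embryos at 3 h, against 20.4 and 29.9 TPM untreated, and 16.4 and 18.9 TPM in wild-type embryos at 3 h, against 17.7 and 26.2 TPM untreated. The last 2 pairs of groups overlapped. Without the 5.8S-rich libraries the e2f3 change was -0.13 in the p53 mutant and -0.55 in the wild type, and without the 5.8S-poor ones 0.41 and -0.0070. In the latter fit the median change of all tested genes was 0.363 and 0.458. e2f1 had 3.54 and 3.25 TPM in triple mutant embryos at 3 h, against 4.63 and 4.03 TPM untreated, and its log2 change was -0.28 (SE 0.598, limma adjusted p = 1). In p53 mutant and wild-type embryos the 3 h and untreated groups of e2f1 overlapped. The e2f1 change was -0.72 and -1.02 in these genotypes without the 5.8S-rich libraries, and 0.14 and 0.012 without the 5.8S-poor ones. At 1 h in p53 mutant embryos e2f1 had 1.25 and 10.3 TPM, the widest gap between partner libraries of any E2F gene relative to its level.

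e2f4 and e2f5 encode the repressive partners of the pocket proteins. e2f4 had 13.4 and 13.7 TPM in triple mutant embryos at 3 h, against 16.0 and 15.9 TPM untreated, but 21.9 and 23.1 TPM at 2 h. The fit within the table called e2f4 at 2 h (log2 change 0.47, limma adjusted p = 0.0273, or 0.829 over all groups) and not at 3 h (-0.22, 0.315). In p53 mutant embryos e2f4 had 43.5 and 40.7 TPM at 3 h, against 27.7 and 40.1 TPM untreated, and in wild-type embryos 27.0 and 25.6 TPM at 3 h, against 19.5 and 35.0 TPM untreated. Its log2 changes there were 0.33 and 0.01 (SE 0.344 each, limma adjusted p = 0.837 and 0.998). They were 0.066 and -0.40 without the 5.8S-rich libraries, and 0.58 and 0.41 without the 5.8S-poor ones. In the latter fit the median change of all tested genes was 0.363 and 0.458. e2f5 stayed at or below 2.28 TPM in every library, and its log2 changes at 3 h were 0.01, 0.05 and -0.29 in the triple mutant, the p53 mutant and the wild type (SE 0.215 each).

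**Figure D3:**
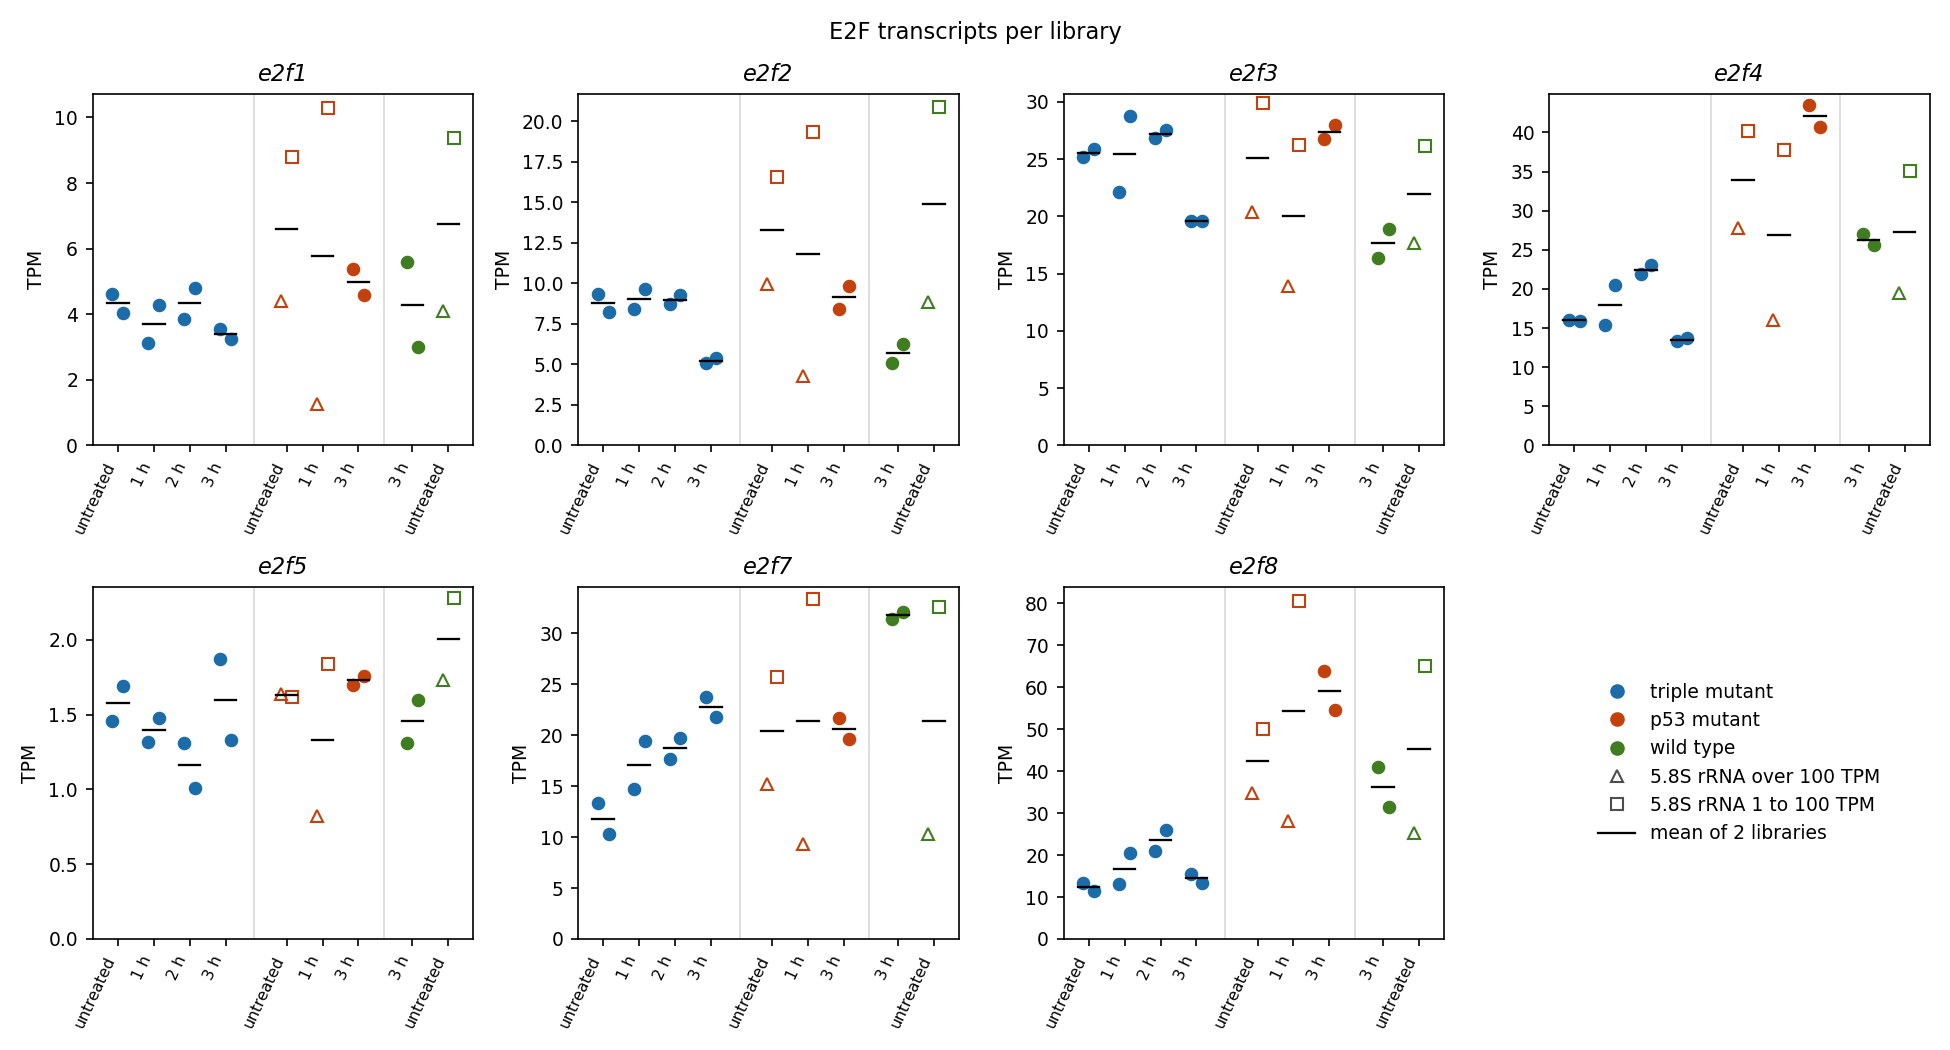
TPM of the 7 E2F genes in each of the 18 libraries, by genotype and time. Points are libraries, bars are means of 2, and open symbols mark libraries with 5.8S ribosomal RNA. In the triple mutant e2f7 stood at 21.8 and 23.8 TPM at 3 h, above its untreated libraries, and e2f8 was highest at 2 h (21.0 and 26.0 TPM).

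The atypical genes e2f7 and e2f8 took different courses in the triple mutant. e2f7 had 13.3 and 10.3 TPM untreated, 14.7 and 19.4 TPM at 1 h, 17.7 and 19.7 TPM at 2 h, and 23.8 and 21.8 TPM at 3 h. Every irradiated group lay above the untreated one. The log2 change of e2f7 was 0.90 at 3 h (SE 0.527, limma adjusted p = 1), and it was called within the table at 2 h (limma adjusted p = 0.0191) and at 3 h (0.00766). e2f8 had 13.4 and 11.6 TPM untreated, 13.0 and 20.5 TPM at 1 h, 21.0 and 26.0 TPM at 2 h, and 15.6 and 13.3 TPM at 3 h. It stood apart from the untreated group at 2 h and overlapped it at 1 h and 3 h. The log2 change of e2f8 was 0.86 at 2 h (SE 0.472, limma adjusted p = 0.738, or 0.0153 within the table) and 0.20 at 3 h (limma adjusted p = 1, or 0.563 within the table).

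In wild-type embryos e2f7 had 31.4 and 32.1 TPM at 3 h, against 10.3 and 32.6 TPM untreated. The untreated libraries differed so much that the groups overlapped, and the log2 change was 0.75 (SE 0.527, limma adjusted p = 0.526). That change was -0.034 without the 5.8S-rich libraries and 1.53 without the 5.8S-poor ones, so 1 untreated library decided its size and sign. In p53 mutant embryos e2f7 had 21.7 and 19.6 TPM at 3 h, against 15.2 and 25.7 TPM untreated, a log2 change of 0.06 (SE 0.527, limma adjusted p = 0.986). Without the 5.8S-rich libraries it was -0.31 and without the 5.8S-poor ones 0.42. e2f8 had 63.9 and 54.5 TPM in p53 mutant embryos at 3 h, against 34.8 and 50.0 TPM untreated, and 41.1 and 31.4 TPM in wild-type embryos at 3 h, against 25.3 and 65.1 TPM untreated. Its log2 changes were 0.49 and -0.17 (SE 0.472 each, limma adjusted p = 0.817 and 0.895). Leaving out the 5.8S-rich libraries gave 0.23 and -0.84, and leaving out the 5.8S-poor ones gave 0.75 and 0.49. In the latter fit the median change of all tested genes was 0.363 and 0.458.

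The classes of E2F transcripts were also set against each other. In triple mutant embryos the activating genes e2f1, e2f2 and e2f3 made up 34.0% and 36.0% of the summed TPM of the 7 genes at 3 h, against 47.0% and 49.1% untreated. The time course of that share was 48.1% untreated, 42.0% at 1 h, 38.2% at 2 h and 35.0% at 3 h (means of 2 libraries). In p53 mutant embryos it was 23.7% to 26.7% at 3 h, against 30.4% to 32.0% untreated, and in wild-type embryos 21.2% to 23.7% at 3 h, against 29.5% to 35.0% untreated. The 3 h libraries thus lay below the untreated ones in all 3 genotypes, the p53 mutant included. The share of e2f7 and e2f8 was 44.8% to 47.6% at 3 h in the triple mutant, against 28.2% to 32.0% untreated. p53 mutant embryos had 46.6% to 50.0% at 3 h, against 43.8% in both untreated libraries, and in the wild type 53.4% to 56.7% at 3 h, against 40.7% to 51.0% untreated. The summed E2F level was 80.6 ± 3.14 TPM in the triple mutant at 3 h and 80.5 ± 4.00 TPM untreated (SD, n = 2 each), with 106 ± 7.14 TPM at 2 h. These shares were not tested.

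Counted over the family, few changes passed the test. Of the 10 genes, 1 was called higher and 0 lower in the triple mutant at 3 h, where 0.748% of all tested genes were called. By direction, 0.598% of genes were called higher there and 0.151% lower. No member was called by limma at 1 h or 2 h, where 0.0808% (0.0431% higher, 0.0377% lower) and 0.221% (0.102% higher, 0.118% lower) of genes were called. For the p53 mutant limma called 0 of 10 at 1 h and 0 at 3 h, beside 0.00538% and 0.458% of genes. None of the 10 had an unadjusted limma p under 0.05 there, whereas 202 and 1866 of the 18575 tested genes did. The wild type had 1 called higher and 0 lower, beside 3.78% of genes (3.11% higher, 0.668% lower). Besides rbl2, rbl1 and e2f2 had an unadjusted limma p under 0.05 in the wild type, where 3281 of the 18575 tested genes did. The fit within the triple mutant table called 1 of 10 at 1 h, 4 at 2 h and 4 at 3 h, where it called 2.71%, 24.3% and 6.82% of all genes. It called 0 of 10 at either time in the p53 mutant (0% and 0.00568% of genes) and 1, rbl2, in the wild type (0.521%). Of the 4 called within the table at 3 h, rbl2 and e2f7 were higher and rbl1 and e2f2 lower. At 2 h rbl2, e2f4, e2f7 and e2f8 were called higher. Between 3 h and 1 h in the triple mutant the shared fit called rbl2 alone of the 10, as higher (0.377% of genes, with 0.334% higher and 0.0431% lower), and the fit within the table also called e2f2, as lower (2.62%).

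**Figure D4:**
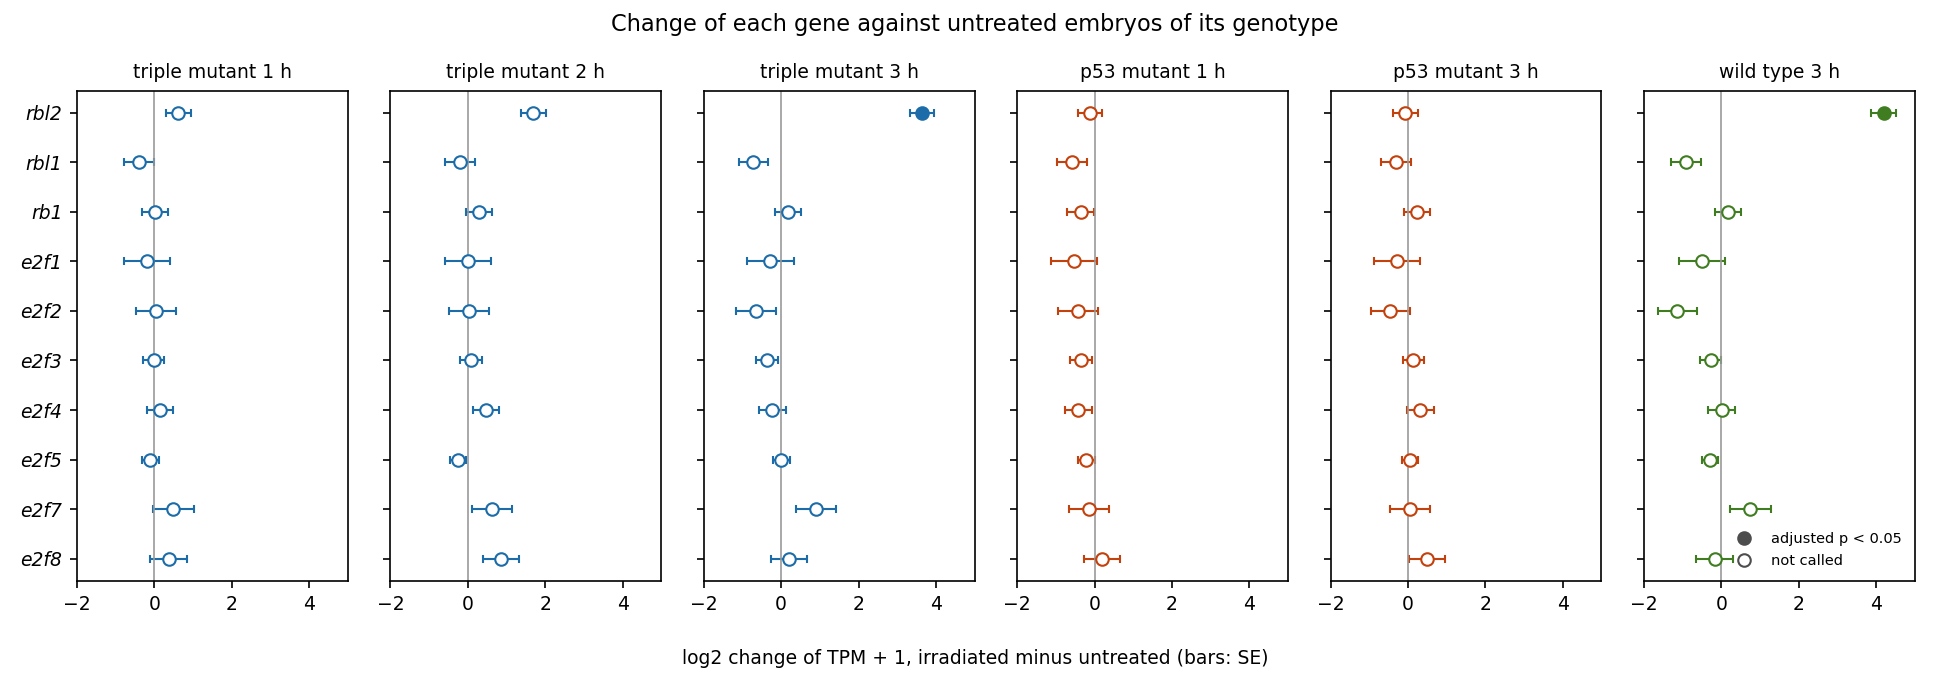
Change on the log2(TPM + 1) scale of the 10 genes in each irradiated group against untreated embryos of the same genotype, with the standard error as bars and filled points for an adjusted p under 0.05. The filled points are rbl2 in the triple mutant at 3 h (3.64) and in the wild type at 3 h (4.19), and the other 9 genes lie between -1.14 and 0.90.

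Group ranges were also compared, with no model. In the triple mutant at 3 h, 3 of the 10 genes lay above and 5 below the untreated libraries, where 39.3% and 20.9% of all genes did. At 2 h 6 lay above and 2 below (53.3% and 17.2% of genes), and at 1 h 2 lay above and 1 below (20.9% and 20.3%). The 3 h group set against the 1 h group had 2 above, rbl2 and e2f7, and 4 below, rbl1, e2f2, e2f3 and e2f4 (27.6% and 13.5%). For the p53 mutant 3 lay above and 2 below at 3 h (36.4% and 9.96%), and all 10 overlapped at 1 h (2.89% above and 5.81% below). For the wild type 1 lay above and 3, rbl1, e2f2 and e2f5, lay below (36% and 6.78%). The median log2 change of the 10 genes at 3 h was -0.11 in the triple mutant, 0.05 in the p53 mutant and -0.23 in the wild type, against 0.07, 0.17 and 0.23 over all tested genes. With median-of-ratios scaling the all-gene medians were 0.01, 0.01 and -0.01, so the wild-type values above are relative to a shift of 0.23. Under that scaling the changes of rb1 and e2f4 in the wild type, of e2f3, e2f5 and e2f7 in the p53 mutant and of e2f5 in the triple mutant changed sign, rbl1, e2f2 and e2f3 were called lower in the wild type (-1.16, -1.37 and -0.56), and rbl1 was called lower in the triple mutant (-0.80).

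Responses of the other 9 genes were also set against each other between genotypes. Wild type minus p53 mutant at 3 h ran from -0.68 (e2f2) to 0.70 (e2f7), triple mutant minus p53 mutant from -0.55 (e2f4) to 0.85 (e2f7), and triple mutant minus wild type from -0.23 (e2f4) to 0.49 (e2f2). All had a limma adjusted p of 1. The intervals were wide, for example -0.93 to 2.32 for e2f7 and -2.12 to 0.79 for e2f8 in wild type minus p53 mutant, so differences of that size were not detectable here. Of the 10 genes, rbl2 was called in the first 2 differences and none in the third or in triple mutant minus p53 mutant at 1 h. Over all genes 0.382%, 0.28%, 0.0592% and 0.0269% were called, of which 0.345%, 0.237%, 0.0108% and 0.0215% were higher and 0.0377%, 0.0431%, 0.0485% and 0.00538% lower.

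Untreated levels are given side by side and were not tested, since the genotypes come in separate tables and cannot be told apart from them. e2f8 averaged 12.5 ± 1.3 TPM in the untreated triple mutant, 42.4 ± 10.8 TPM in the untreated p53 mutant and 45.2 ± 28.1 TPM in the untreated wild type (SD, n = 2 each). e2f4 averaged 16.0 ± 0.042, 33.9 ± 8.76 and 27.3 ± 11.0 TPM in the same order, and rbl1 8.14 ± 0.12, 14.9 ± 4.17 and 15.9 ± 7.33 TPM. These 3 genes were chosen after their values were seen. Untreated rbl2 levels overlapped between genotypes, at 0.57 to 1.71 TPM over the 6 libraries.

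Genes around the family were read from 4 lists written for it: upstream cyclins, kinases and kinase inhibitors; dimer partners and MuvB subunits; G1/S genes bound by E2F in mammals; and G2/M genes bound by DREAM in mammals. Among 19 tested upstream genes, 3 were called higher and 0 lower in the triple mutant at 3 h, 0 in the p53 mutant, and 3 higher and 1 lower in the wild type, where 0.598%, 0.231% and 3.11% of all genes were called higher. The list medians were 0.01, 0.10 and -0.10. The 3 higher genes encode inhibitors of cyclin-dependent kinases. cdkn1a, encoding p21, had 51.9 and 65.8 TPM in the triple mutant at 3 h, against 1.92 and 3.54 TPM untreated, and 306 and 361 TPM in the wild type at 3 h, against 4.44 and 6.96 TPM untreated. It rose by 4.03 and 5.66 (SE 0.488 each, limma adjusted p = 0.00113 and 4.04e-05), and in the p53 mutant its change was -0.95 (0.565). CDKN1B (ENSDARG00000029018), encoding p27, had 66.0 to 68.0 TPM in the triple mutant at 3 h, against 16.6 to 17.4 TPM untreated, and 70.3 to 72.0 TPM in the wild type at 3 h, against 8.84 to 12.1 TPM untreated. It rose by 1.92 and 2.67 (SE 0.167 each, limma adjusted p = 6.33e-05 and 2.45e-06), and its p53 mutant change was 0.29 (0.628). Another gene with the symbol CDKN1B (ENSDARG00000054271) was not among those called at 3 h in any genotype. cdkn2a/b, of the INK4 family, had 8.24 and 15.9 TPM in the triple mutant at 3 h, against 0 and 0.9 TPM untreated, and 29.4 and 32.9 TPM in the wild type at 3 h, against 0 and 0.17 TPM untreated. It was listed at 0 in all 4 p53 mutant libraries at 3 h and untreated. Its fitted rises of 3.18 and 4.89 (SE 0.376 each, limma adjusted p = 0.000941 and 1.36e-05) depend on the pseudocount, and the first lost its call at 0.1 TPM (0.107). cdkn1cb, of the p57 type, fell by 0.89 in the wild type (SE 0.219, limma adjusted p = 0.0447, or 0.472 within the table). Leaving out single libraries removed this call in 15 of 18 cases.

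The partners of the E2F and pocket proteins were read in the same way. Of 22 tested dimer partner and MuvB genes, 0 were called by limma in any of the 3 genotypes at 3 h. Of all tested genes 0.748%, 0.458% and 3.78% were called in the triple mutant, the p53 mutant and the wild type. The fit within the table called 1 of the 22 higher in the triple mutant, where it called 6.82% of all genes. The list medians were 0.20, 0.41 and 0.19 in the triple mutant, the p53 mutant and the wild type, against all-gene medians of 0.07, 0.17 and 0.23.

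Of 62 tested G1/S genes, 4 were called lower and 0 higher in the triple mutant at 3 h, 1 lower in the p53 mutant, and 3 lower and 2 higher in the wild type, where 0.151%, 0.226% and 0.668% of all genes were called lower and 0.598%, 0.231% and 3.11% higher. The list medians were -0.01, 0.32 and 0.00. CDCA7 (ENSDARG00000077620), a chromatin factor and E2F target, had 11.5 and 14.6 TPM in the triple mutant at 3 h, against 83.1 and 83.3 TPM untreated, 52.4 and 54.9 TPM in the p53 mutant at 3 h, against 132 and 152 TPM untreated, and 18.4 and 19.4 TPM in the wild type at 3 h, against 85.3 and 128 TPM untreated. It fell in all 3, with log2 changes of -2.59, -1.38 and -2.41 (SE 0.216 each, limma adjusted p = 5.1e-05, 0.0153 and 5.6e-05), and neither difference from the p53 mutant was called (0.263 and 0.46). Of the genes mcm2 to mcm7, which encode the core of the replicative helicase, 3 were called lower in the triple mutant at 3 h. mcm5 fell by 1.60, mcm2 by 1.56 and mcm4 by 1.16 (limma adjusted p = 0.0285, 0.047 and 0.0453), and leaving out single libraries removed these calls in 10, 13 and 12 of 18 cases (adjusted p up to 0.306, 0.546 and 0.459). The log2 changes of mcm3, mcm6 and mcm7 were -1.24, -1.17 and 0.11 (limma adjusted p = 0.261, 0.494 and 1). The symbol mcm6 matched 2 genes, and the value given is for 1 of them. In the wild type mcm5 fell by 1.81 and mcm2 by 1.31 (0.00647 and 0.0416), and neither was called within the table (0.0973 and 0.223). Leaving out single libraries removed the wild-type call of mcm2 in 13 of 18 cases and that of mcm5 in 1. The p53 mutant changes of mcm5, mcm2 and mcm4 were -0.82, -0.71 and -0.51, none of them called (limma adjusted p = 0.352, 0.48 and 0.494). No difference of these 3 genes from the p53 mutant response was called. prim2, a subunit of the primase, rose by 0.80 in the wild type (0.0237), which was not called within the table (0.487) or with median-of-ratios scaling (0.616).

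Genes of the G2/M list were called lower in all 3 genotypes. Of 58 tested, 10 were called lower and 0 higher in the triple mutant at 3 h, 9 lower and 0 higher in the p53 mutant, and 14 lower and 0 higher in the wild type, where 0.151%, 0.226% and 0.668% of all genes were called lower. The list medians were -0.62, -0.57 and -0.56. cdc20, whose protein switches on the anaphase-promoting complex in mitosis, had 9.40 and 9.88 TPM in the triple mutant at 3 h, against 43.7 and 45.2 TPM untreated. p53 mutant embryos had 14.5 and 16.0 TPM at 3 h, against 54.6 and 60.0 TPM untreated, and in the wild type 11.5 and 13.2 TPM at 3 h, against 40.2 and 58.6 TPM untreated. Its log2 changes were -2.10, -1.84 and -1.89 (SE 0.181 each, limma adjusted p = 6.33e-05, 0.000499 and 9.15e-05). The log2 changes were -2.15, -2.18 and -2.19 for the mitotic gene cdca3 (SE 0.152 each), -2.51, -2.24 and -2.24 for the helicase gene pif1 (SE 0.162 each) and -1.62, -1.68 and -1.97 for the spindle motor gene kif11 (SE 0.223 each), in the triple mutant, the p53 mutant and the wild type. The differences of these 4 genes from the p53 mutant response ran from -0.29 to 0.06, all with a limma adjusted p of 1. At 1 h pif1 was already lower in the triple mutant, with 1.57 and 1.67 TPM, against 9.35 and 9.51 TPM untreated. Its log2 change was -1.99 (limma adjusted p = 0.000246). The p53 mutant change of pif1 at 1 h was -1.35, called by a narrow margin (limma adjusted p = 0.0499) and the only call there. No gene was called in that comparison within the table, after median-of-ratios scaling, with array weights or with a replicate block. The same held after quantile normalization, with a pseudocount of 0.1 TPM, with a filter of 5 TPM and without mitochondrial transcripts. So pif1 lost its call in those runs, whereas adding 5 TPM before the log left 1 gene called lower. The call of kif11 in the triple mutant was lost without untreated replicate 1 (limma adjusted p = 0.059) or 3 h replicate 1 (0.0524). For the p53 mutant no gene of the 4 lists was called within the table at 3 h. For the wild type cdc20 and kif11 were not called within the table (0.0571 and 0.0675), and 2 genes of the G2/M list were. Over the 4 lists together, 10 genes were called lower and 0 higher in the p53 mutant at 3 h, and 18 lower and 5 higher in the wild type. List calls in these 2 genotypes are not read as a response with 5.8S libraries left out, since 1 library then stood for a whole untreated group. The median change of all tested genes was -0.004 in the p53 mutant and 0.029 in the wild type without the 5.8S-rich libraries. Without the 5.8S-poor ones these medians were 0.363 and 0.458.

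**Figure D5:**
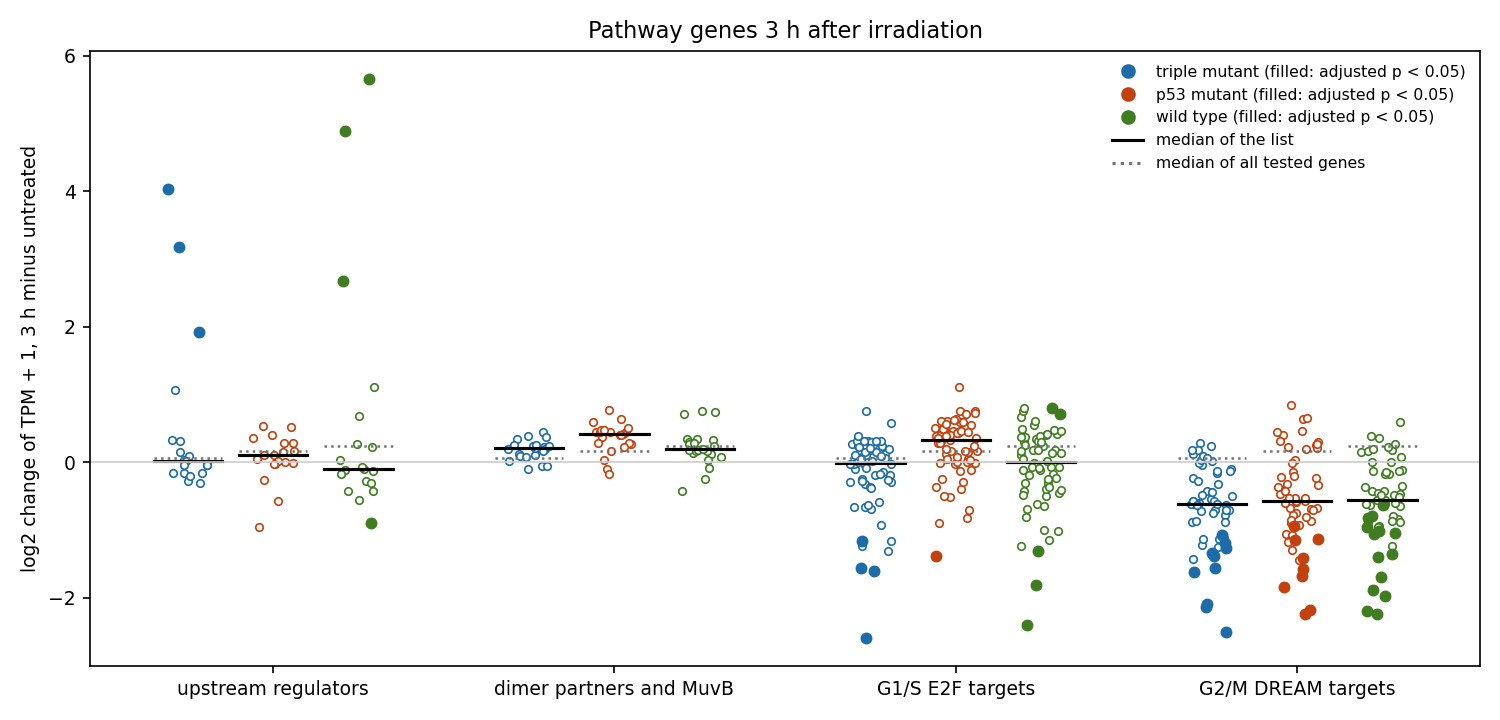
Change on the log2(TPM + 1) scale at 3 h of each tested gene of the 4 lists, by genotype, with filled points for an adjusted p under 0.05, solid bars for list medians and dotted bars for the median of all tested genes. The G2/M list is low in each genotype (medians -0.62, -0.57 and -0.56), whereas the 3 high upstream genes appear in the triple mutant and the wild type.

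The genes whose course was most like that of rbl2 were found by Pearson correlation of log2(TPM + 1) over the 18 libraries, after subtracting the mean of each genotype, among 9246 genes with a symbol and a group mean of at least 10 TPM. Among the 5 highest were VRK2 (ENSDARG00000021547, r = 0.991), GTPBP1 (ENSDARG00000042900, 0.991), rnf169 (0.979) and RSPO1 (ENSDARG00000104340, 0.977). The libraries fall into groups of 2 and the value rests on the irradiated groups with p53, so it is a description and carries no p. VRK2, a kinase gene, averaged 36.0 ± 0.057 TPM in the triple mutant at 3 h and 3.23 ± 0.552 TPM untreated, and 46.0 ± 1.91 TPM in the wild type at 3 h and 4.28 ± 1.95 TPM untreated (SD, n = 2 each). p53 mutant VRK2 stood at 3.85 ± 0.141 TPM at 3 h and 3.49 ± 0.021 TPM untreated. Among the other family members the same correlation with rbl2 was highest for e2f7 (r = 0.642) and lowest for rbl1 (r = -0.483).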

How the data were processed

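RNA was measured in 18 libraries of whole zebrafish embryos in 9 groups of 2. Per the labels' protocols, libraries were poly(A) selected and sequenced as paired reads at 2 centres. The authors deposited 3 tables of TPM values, 1 per genotype. Column sums were 1000000 with at most 0.86 of difference. The build was GRCz11, and the tools were RSEM 1.3.3, STAR 2.7.3a and HTSeq 0.12.3, beside DESeq2 1.42.1, per the submitters' processing notes, with no role for each. TPM values hold no read counts, so depth is unknown and no counting interval was computed. Counting by strand is not given in the sources used here.

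TPM was put on the scale of log2(TPM + 1), and the 18575 genes that reached 1 TPM in 2 or more libraries were kept. limma 3.58.1 in R 4.3.3 fitted 1 model over the 9 groups with the spread following the mean level (degrees of freedom 9 residual, 2.87 prior) and made 11 comparisons. Tests were two-sided, and a gene was called at a Benjamini-Hochberg p, adjusted over all tested genes, under 0.05. A second fit used each genotype's table alone (2 to 4 residual degrees of freedom). The fit was tested on simulated data. Fits without the libraries rich or poor in 5.8S RNA leave 1 library in 3 groups, which is assumed to vary like the other groups.

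The family members and the lists were chosen with earlier results of these data known. The text names all 10 members, up to 4 genes per list with the largest change among those called at 3 h in the triple mutant, and likewise in the wild type, and the 5 genes most like rbl2, of which 1 is not reported here. Alternatives covered the pseudocount, the filter, scaling, array weights, a replicate block, mitochondrial transcripts and single libraries. Leaving out the low 5.8S libraries was added after seeing the data. Sequences and coordinates were not used here.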

Additional observations from a re-analysis of the deposited data

Results flagged for a closer look

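A response that differed between genotypes, by a test of the difference itself, was found at 3 h for 1 family member and 3 kinase inhibitor genes. Each difference is on the log2(TPM + 1) scale, and the wild-type one is taken as wild type minus p53 mutant. For rbl2 the difference was 3.70 for triple mutant minus p53 mutant and 4.26 for wild type minus p53 mutant (SE 0.453 each, limma adjusted p = 0.0023 and 0.000778). For cdkn1a the differences were 4.98 and 6.62 (SE 0.69 each, limma adjusted p = 0.00695 and 0.000673). For CDKN1B they were 1.63 and 2.38 (SE 0.236 each, limma adjusted p = 0.00937 and 0.000438). For cdkn2a/b they were 3.18 and 4.89 (SE 0.531 each, limma adjusted p = 0.0281 and 0.000881), which depend on the pseudocount because the p53 mutant was listed at 0. All 4 genes moved up in both libraries of the triple mutant and of the wild type.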

How the results depend on the processing

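The calls of rbl2 at 3 h in the triple mutant and the wild type, and of its wild type minus p53 mutant difference, held in every alternative run, at 2.31 to 4.40, 2.81 to 4.99 and 2.83 to 5.08 on the log2 scale without counting single libraries left out. Of 485 values of the members under these alternatives, rbl2 included, 395 kept direction and side of the threshold, 2 lost a call, 61 gained one and 27 changed sign, and all that changed sign were uncalled with all libraries. For the genes of the lists named in the text, each at 3 h in the genotype it was named for, 253 of 276 values were kept. The other 23 lost a call. Those genes were chosen because they were called, so none could gain a call. The cause of these changes was not tested. The depth is unknown, which limits what can be said of genes near 0.

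Counts below are of the 10 members, then of the listed genes, called at 3 h unless 2 h is named. With a pseudocount of 0.1 TPM, 0 members were called in triple mutant minus p53 mutant, where rbl2 was called otherwise, and rbl2 lost its call between 3 h and 1 h in the triple mutant. With 5 TPM, 1 member was higher in the triple mutant at 2 h, where 0.264% of all tested genes were called, and wild-type e2f4 was -0.0013. With a replicate block 1 member was higher in the triple mutant at 2 h, rbl2, beside 0.307% of all tested genes called. No other call of a member changed with the block. Same-numbered libraries did not deviate together in every pair of groups, so the numbers were not taken to pair them (correlations of -0.353 to 0.789 over 36 pairs of groups, 26 of them under 0.1). The highest, 0.626 to 0.789, were among the untreated p53 mutant, the p53 mutant at 1 h and the untreated wild type, where replicate 1 is the 5.8S-rich library.

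With median-of-ratios scaling, 1 member was higher in the triple mutant at 2 h, 1 lower in the triple mutant and 3 lower in the wild type. Listed genes called lower numbered 30 in the triple mutant, 22 in the p53 mutant and 44 in the wild type. Of all tested genes, 0.544% were called in the triple mutant at 2 h, and 1.21%, 0.867% and 3.18% in these genotypes at 3 h. Changes that turned were triple mutant e2f5 (-0.043), p53 mutant e2f3 (-0.048), e2f5 (-0.072) and e2f7 (-0.13), and wild-type rb1 (-0.11) and e2f4 (-0.28). With quantile normalization the member counts were the same, 1, 1 and 3. Listed genes called lower numbered 29, 24 and 47, with 2 higher in the p53 mutant. Shares of all tested genes called were 0.635% in the triple mutant at 2 h, and 1.21%, 0.964% and 4.41% at 3 h in the same order. Triple mutant e2f5 was -0.050, p53 mutant rbl2 at 1 h 0.024, p53 mutant e2f3 -0.075, e2f5 -0.037 and e2f7 -0.16, and wild-type rb1 -0.09 and e2f4 -0.25.

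The fit within each table called 4 members higher at 2 h, and 2 higher and 2 lower at 3 h, in the triple mutant. Its listed genes were 7 higher and 48 lower in the triple mutant, 0 lower in the p53 mutant, and 3 higher and 3 lower in the wild type. That fit called 24.3% of all genes in the triple mutant at 2 h. At 3 h it called 6.82% there, 0.00568% in the p53 mutant and 0.521% in the wild type. Array weights gave 5 members higher at 2 h, and 2 higher and 3 lower at 3 h, in the triple mutant. Of the listed genes, 16 were higher and 62 lower there at 3 h, and 3 higher and 10 lower in the wild type. Array weights called 38.4% of all tested genes in the triple mutant at 2 h, 17.7% at 3 h and 0.937% in the wild type. Without mitochondrial transcripts triple mutant e2f5 was -0.0051 and wild-type e2f4 -0.027.

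Without the libraries of over 100 TPM of 5.8S RNA, the triple mutant kept both libraries of each group. The log2 changes of its members stayed as given above, but some of their calls did not. The p53 mutant had 1 member lower, 7 listed genes higher and 43 lower, and changes of 0.18 for rbl2 at 1 h, -0.071 for rb1, -0.13 for e2f3 and -0.31 for e2f7. The wild type had 5 members lower, 12 listed genes higher and 85 lower, and changes of -0.22 for rb1, -0.40 for e2f4 and -0.034 for e2f7. The counts of this fit are not read as a response of the family or the lists. In this fit 1 library stood for the whole group in 3 groups. For both genotypes this fit also called a larger share of all tested genes than the fit over all libraries did. Without the libraries of 1 to 100 TPM, an alternative chosen after seeing the data, the triple mutant again kept both libraries of each group. The p53 mutant had 4 members higher, 66 listed genes higher and 41 lower, with rbl2 at 0.18 and e2f1 at 0.14. The wild type had 4 members higher and 2 lower, 67 listed genes higher and 38 lower, with e2f1 at 0.012 and e2f8 at 0.49. The counts of that fit are not read as a response for the same reasons. For both genotypes it called a still larger share of all tested genes. The median change of all tested genes was 0.363 in the p53 mutant and 0.458 in the wild type there.

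Leaving out each library in turn left 1 library in the group it came from. Listed genes called lower ran from 6 to 21 in the triple mutant, 4 to 13 in the p53 mutant and 7 to 31 in the wild type, and those called higher from 0 to 1 in the p53 mutant and 3 to 8 in the wild type. Those counts are therefore not read as a response of the lists. Changes that turned ran from -0.14 to 0.16 for triple mutant e2f5. In the p53 mutant they ran from -0.65 to 0.42 for rbl2 at 1 h, -0.30 to 0.18 for rbl2, -0.071 to 0.55 for rb1, -0.72 to 0.14 for e2f1, -0.13 to 0.41 for e2f3 and -0.31 to 0.42 for e2f7. In the wild type they ran from -0.22 to 0.57 for rb1, -1.02 to 0.012 for e2f1, -0.40 to 0.41 for e2f4, -0.034 to 1.53 for e2f7 and -0.84 to 0.49 for e2f8.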

Other observations

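The other 3 genes with a course like that of rbl2 were also measured in every group. GTPBP1, a GTP-binding protein gene, averaged 27.4 ± 2.31 TPM in the triple mutant at 3 h and 4.72 ± 0.672 TPM untreated, 7.08 ± 0.658 TPM in the p53 mutant at 3 h and 6.28 ± 2.23 TPM untreated, and 41.2 ± 0.799 TPM in the wild type at 3 h and 5.60 ± 1.23 TPM untreated (SD, n = 2 each). rnf169, which encodes a ubiquitin-binding protein of the response to DNA breaks, averaged 22.6 ± 2.14 TPM in the triple mutant at 3 h and 3.04 ± 0.148 TPM untreated, 3.60 ± 0.17 TPM in the p53 mutant at 3 h and 3.33 ± 1.24 TPM untreated, and 41.7 ± 2.38 TPM in the wild type at 3 h and 4.56 ± 2.31 TPM untreated. RSPO1, an enhancer of Wnt signalling, averaged 10.8 ± 1.29 TPM in the triple mutant at 3 h and 0.58 ± 0.205 TPM untreated, 0.11 ± 0.099 TPM in the p53 mutant at 3 h and 0.14 ± 0.092 TPM untreated, and 13.5 ± 0.969 TPM in the wild type at 3 h and 0.20 ± 0.106 TPM untreated. These genes were chosen for this likeness, so the values are a description.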
